A study of Rattus norvegicus with 8 samples.

Results

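Glutamate transporters were measured in the rat *substantia nigra* (SN) 20 weeks after a vector carrying human α-synuclein (αSyn) or a control vector was injected. The genes were 3 vesicular carriers (*Slc17a6*, *Slc17a7* and *Slc17a8*) and 4 carriers of the plasma membrane (*Slc1a1*, *Slc1a2*, *Slc1a3* and *Slc1a6*). They were found as every probe, controls apart, whose RefSeq identifier on the array belongs to 1 of these 7 rat genes. All 7 were present among the 16678 genes of the array that could be named, through 8 of its 45598 probes, with 2 probes for *Slc1a3* and 1 for each of the other 6 genes. All 8 were among the 33853 probes tested, which are those that the scanner software called well above background on at least 1 array.

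Adult female Sprague-Dawley rats, 3 months old at surgery, received an AAV6 vector by stereotaxic injection into the SN of 1 side. The AAV-αSyn group received wild-type human αSyn at 5.2e10 vector genomes per µL and the AAV-Null group the control vector at 5.3e9, so the titre of the vector and its cargo cannot be told apart between the groups. The promoter of the vector is not given in the sources used here, and both groups carry the injection itself. RNA from the dissected SN of the injected side was labelled with Cy3 and hybridised to 8 Agilent arrays of 1 slide, 4 per group, with 74.8% to 77.5% of spots detected above background per array. Values are normalized log2 intensities. They order the arrays for 1 probe, and do not compare the level of 1 gene with that of another.

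Neurons that release glutamate load it into synaptic vesicles through a vesicular glutamate transporter, which draws on the proton gradient of the vesicle. *Slc17a6* encodes VGLUT2, typical of the thalamus, subthalamic nucleus and brainstem, *Slc17a7* encodes VGLUT1, typical of the cortex and hippocampus, and *Slc17a8* encodes VGLUT3, found in serotonergic and other neurons that release a further transmitter. After release, glutamate is cleared by sodium-coupled carriers of the plasma membrane, chiefly GLT-1 (*Slc1a2*) and GLAST (*Slc1a3*) of astrocytes, beside EAAT3 (*Slc1a1*) of neurons and EAAT4 (*Slc1a6*), best known from Purkinje cells. The SN receives glutamatergic fibres from the subthalamic nucleus and cortex, whose transcripts lie mostly in cell bodies outside it, and some midbrain dopaminergic neurons express VGLUT2.

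The comparison of AAV-αSyn with AAV-Null asked whether αSyn altered the transcripts of these carriers. No transporter probe passed the test. Of the 8 probes, 0 had an adjusted p under 0.05 in limma's test with the Benjamini–Hochberg method, against 5 of all 33853 probes (0.0148%), and 0 had an unadjusted p under 0.05, against 1908 of all probes (5.64%). At a background share of 5.64%, a count of 0 among 8 probes does not set the transporters apart from other probes. Their unadjusted p ran from 0.392 to 0.992 and their adjusted p from 0.973 to 0.999. The groups of arrays overlapped for each of the 8 probes. The share of all probes with such an overlap was not counted, so it does not set the transporters apart. Taking the brighter probe of *Slc1a3*, the difference of AAV-αSyn minus AAV-Null had a negative sign for 5 genes and a positive sign for 2, with a median of −0.039 on the log2 scale beside a median of 0.0083 over all probes tested. In RNA from whole tissue, fewer cells of a type and less RNA per cell cannot be told apart. The precision differed greatly between the genes, and is given for each below by the 95% interval of its difference in log2 intensity.

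**Figure D1:**
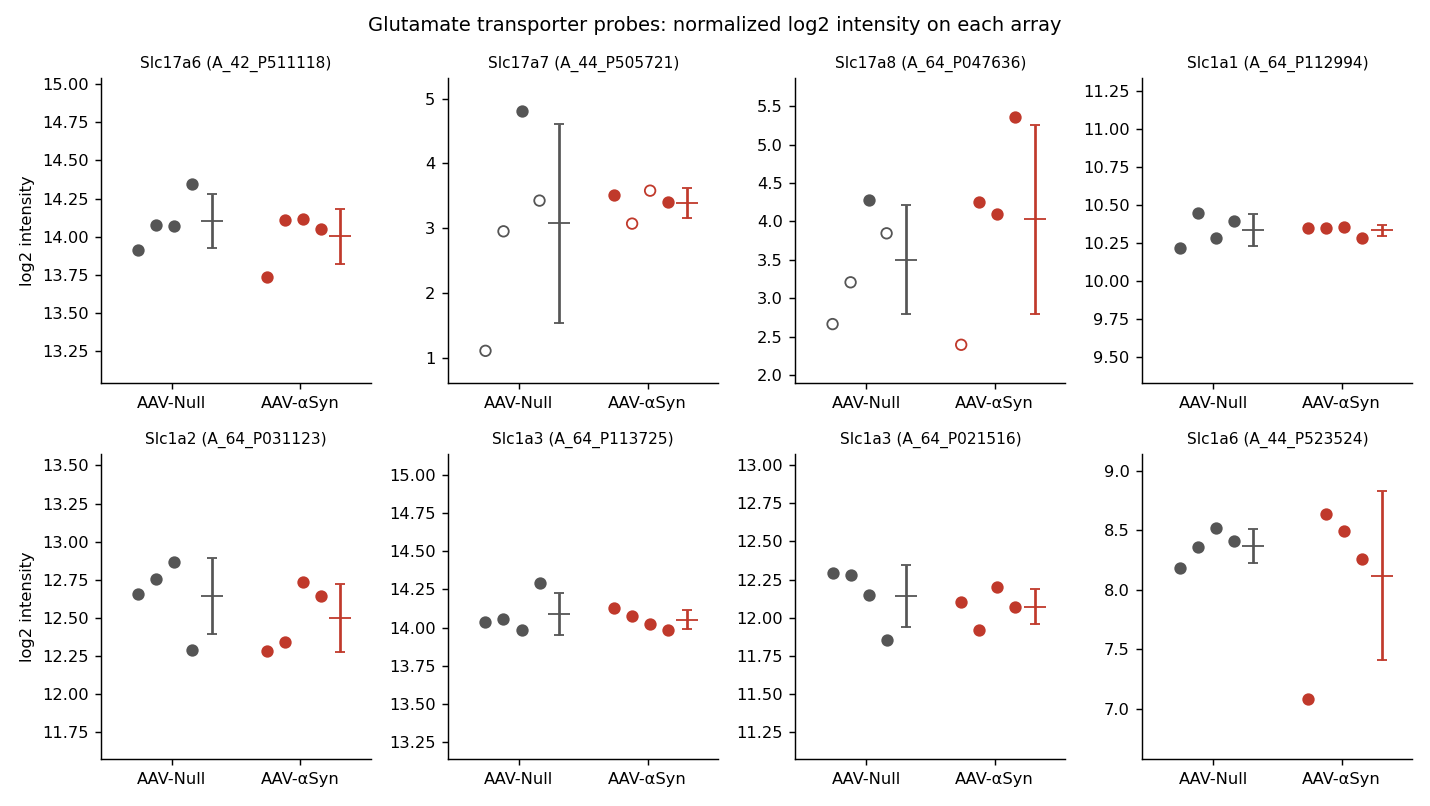
Normalized log2 intensity (vertical axis) of each transporter probe on the 4 AAV-Null (grey) and 4 AAV-αSyn (red) arrays, replicates 1 to 4 from left to right, with bars for the mean ± SD. Filled points were called well above background and open points were not; the axes cover different ranges. The groups overlap in all 8 panels, a share that was not counted over all probes. Open points appear only for *Slc17a7* and *Slc17a8*.

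Among the vesicular carriers, *Slc17a6* was well above background on all 8 arrays (probe A_42_P511118). The AAV-Null arrays, in the order of replicates 1 to 4 used throughout, had log2 intensities of 13.91, 14.08, 14.07 and 14.34, and the AAV-αSyn arrays 13.73, 14.11, 14.12 and 14.05. The highest value was on a control array and the lowest on an AAV-αSyn array, and the other 6 arrays lay between them with no separation by group. The means were 14.10 ± 0.18 and 14.00 ± 0.18 (SD, n = 4 per group), a difference of −0.10 (standard error 0.12), with an exact permutation p of 0.514. The 95% interval ran from −0.38 to 0.19, or from 0.766 to 1.14 times the control level. Leaving out the highest array moved the difference to −0.019, and leaving out the lowest moved it to −0.010.

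*Slc17a7* lay at the edge of detection (probe A_44_P505721). It was called well above background on 1 AAV-Null array, replicate 3, and on 2 AAV-αSyn arrays, replicates 1 and 4. The log2 values were 1.10, 2.95, 4.81 and 3.42 on the AAV-Null arrays and 3.50, 3.07, 3.58 and 3.40 on the AAV-αSyn arrays, where the lowest value of any probe well above background was between 2.51 and 3.50. The AAV-Null arrays held both the lowest and the highest value. The difference of 0.32 (standard error 0.67) had an interval from −1.22 to 1.85 and an exact permutation p of 0.657 (n = 4 per group). Without AAV-Null replicate 1, whose value was the lowest, the difference was −0.34. Because 3 of the 4 control arrays were not well above background, these values set no bound on the fold change of VGLUT1 transcript.

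*Slc17a8* was also dim (probe A_64_P047636), with a call above background on 1 AAV-Null array, replicate 3, and on 3 AAV-αSyn arrays, replicates 2 to 4. Its log2 intensity was 2.66, 3.21, 4.28 and 3.84 on the AAV-Null arrays and 2.40, 4.25, 4.10 and 5.36 on the AAV-αSyn arrays. AAV-αSyn replicate 4 was the highest of the 8 and AAV-αSyn replicate 1 the lowest. The difference was 0.53 (standard error 0.61, interval −0.88 to 1.93, exact permutation p = 0.543, n = 4 per group). Because 3 of the 4 control arrays were not well above background, these values too set no bound on the fold change of the transcript. The difference rested on single arrays. Leaving out AAV-αSyn replicate 4 reduced it to 0.070 (unadjusted p = 0.905 in limma's test), and leaving out AAV-αSyn replicate 1 raised it to 1.07 (unadjusted p = 0.0497 and adjusted p = 0.994 in limma's test). The latter was the single instance of a transporter probe with an unadjusted p under 0.05 when arrays were left out 1 at a time.

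**Figure D2:**
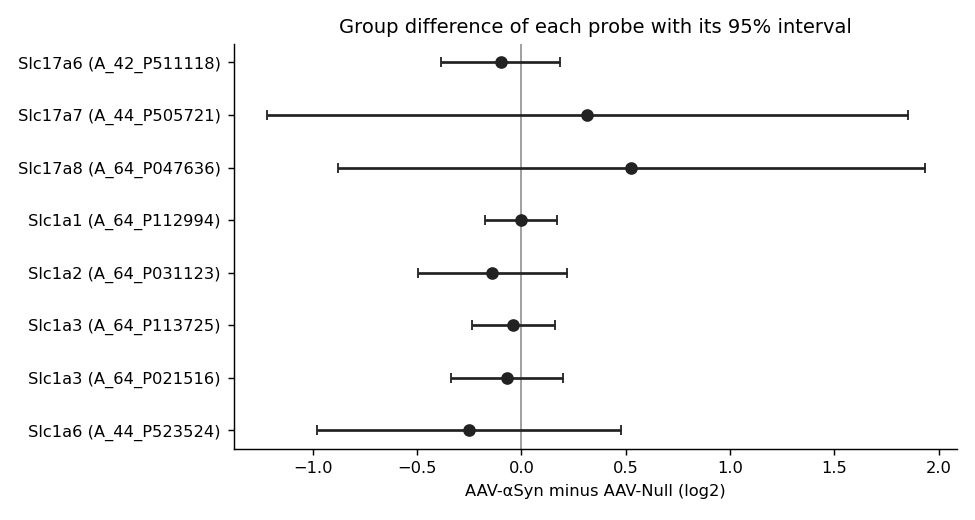
Difference of AAV-αSyn minus AAV-Null on the log2 scale (horizontal axis) for each transporter probe, with its 95% interval from limma's moderated test (n = 4 arrays per group). Every interval includes 0; the interval of *Slc1a1*, from −0.17 to 0.17, is the narrowest and that of *Slc17a7*, from −1.22 to 1.85, the widest.

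The astrocytic carriers were bright on every array. *Slc1a2* (GLT-1, probe A_64_P031123) had log2 intensities of 12.66, 12.76, 12.86 and 12.29 on the AAV-Null arrays and 12.28, 12.34, 12.74 and 12.65 on the AAV-αSyn arrays. The values formed a lower set of AAV-Null replicate 4 with AAV-αSyn replicates 1 and 2, and an upper set of the other 5 arrays, so that each group contributed to both. The means were 12.64 ± 0.25 and 12.50 ± 0.22 (SD, n = 4 per group), a difference of −0.14 (standard error 0.16) with an exact permutation p of 0.371. Its interval was −0.50 to 0.22, or 0.708 to 1.16 times the control level. This was the lowest p of the transporters, for a difference smaller than the SD of either group.

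*Slc1a3* (GLAST) was measured by 2 probes. The brighter, A_64_P113725, is printed 10 times on each array and read 14.03, 14.05, 13.98 and 14.29 in the AAV-Null group and 14.13, 14.07, 14.03 and 13.98 in the AAV-αSyn group. Apart from AAV-Null replicate 4, the highest, the arrays lay within a narrow band shared by the groups. The difference was −0.039 (standard error 0.087, interval −0.24 to 0.16, or 0.847 to 1.12 times the control level, exact permutation p = 0.743, n = 4 per group). Without AAV-Null replicate 4 the sign turned, to 0.029. The other probe, A_64_P021516, read 12.29, 12.28, 12.15 and 11.85 in the AAV-Null group and 12.10, 11.92, 12.20 and 12.07 in the AAV-αSyn group, a difference of −0.071 (standard error 0.12). The probes did not order the arrays alike: AAV-Null replicate 4 gave the highest value of the 8 at the first probe and the lowest at the second. The lowest values of the second probe were on AAV-Null replicate 4 and AAV-αSyn replicate 2, which were also in the lower set for *Slc1a2*.

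The *Slc1a2* probe and the brighter *Slc1a3* probe are printed more than once on each array. The 10 spots of the brighter *Slc1a3* probe had a SD of 0.021 to 0.047 within an array (median 0.033, log2), whereas arrays of a group differed with a SD of 0.107. For *Slc1a2*, which has 2 spots, the SD was 0.0033 to 0.049 within an array (median 0.018) and 0.237 between arrays of a group. Spots of an array share its RNA, labelling and hybridisation, so their SD holds none of the spread between samples. Astrocyte markers gave values beside these carriers: of 8 markers (*Gfap*, *Aqp4*, *Aldh1l1*, *S100b*, *Gja1*, *Gjb6*, *Slc4a4* and *Fgfr3*), 8 were tested and 0 had an unadjusted p under 0.05, beside 5.64% of all probes. Their mean log2 intensity was 13.13 to 13.53 on the AAV-Null arrays and 13.27 to 13.49 on the AAV-αSyn arrays. AAV-Null replicate 4 had the lowest mean of the 8 arrays, but the markers did not move together there. *Gfap* read 10.25 on it, against 11.03 to 11.96 elsewhere, and *Aldh1l1* was also at its lowest, at 11.46, whereas *Gja1* (13.10) and *Gjb6* (12.92) were near their highest. The part of astrocyte content in the values of *Slc1a2* and *Slc1a3* was not tested.

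**Figure D3:**
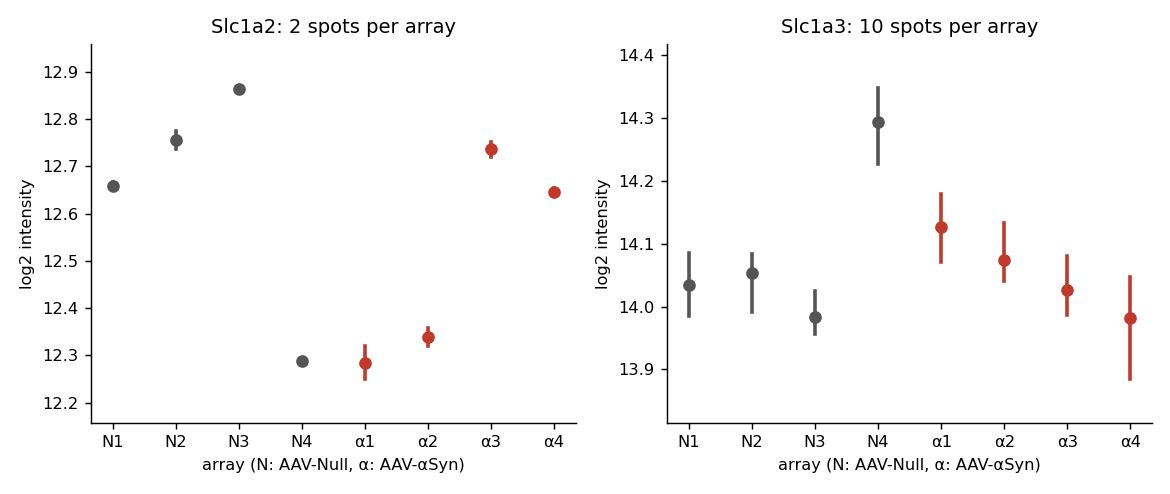
Log2 intensity (vertical axis) of *Slc1a2* and of the brighter *Slc1a3* probe on each array (N, AAV-Null; α, AAV-αSyn; number, replicate). Points are the mean of the spots and lines run from the lowest to the highest spot; the arrays of a group lie further apart (SD 0.237 and 0.107) than spots of an array (median SD 0.018 and 0.033).

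The neuronal carriers differed in how tightly they were measured. *Slc1a1* (EAAT3, probe A_64_P112994) read 10.22, 10.44, 10.28 and 10.39 on the AAV-Null arrays and 10.35, 10.35, 10.36 and 10.28 on the AAV-αSyn arrays. The AAV-αSyn values lay inside the range of the controls. The means were 10.33 ± 0.10 and 10.33 ± 0.035 (SD, n = 4 per group) and the difference was −0.00080 (standard error 0.075, exact permutation p = 1). Its spread around the group means, a SD of 0.077, was at the 7.96th percentile of the probes tested, where the median was 0.189. The interval of −0.17 to 0.17 corresponds to 0.887 to 1.13 times the control level, the closest bound that these arrays set on any of the transporters. The sign of a difference this near 0 carries no direction: it was positive without AAV-Null replicate 2 or 4 or AAV-αSyn replicate 4, and with arrays scaled by their 75th percentile.

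*Slc1a6* (EAAT4, probe A_44_P523524) read 8.18, 8.36, 8.52 and 8.41 on the AAV-Null arrays and 7.08, 8.64, 8.49 and 8.26 on the AAV-αSyn arrays. AAV-αSyn replicate 1 lay below the other 7 arrays, and AAV-αSyn replicate 2 was the highest of all. The means were 8.37 ± 0.14 and 8.12 ± 0.71 (SD, n = 4 per group), a difference of −0.25 (standard error 0.32, interval −0.98 to 0.48, exact permutation p = 0.771). Without AAV-αSyn replicate 1 the difference was 0.095, so that the sign rested on that array. Of the 5 listed cerebellar markers 4 were tested, and 1 of these had an unadjusted p under 0.05, beside 5.64% of all probes. This was *Zic1*, a transcription factor, with a difference of −1.47 (unadjusted p = 0.0121 and adjusted p = 0.747 in limma's test). *Zic1* was highest on AAV-Null replicate 3 (10.68) and lowest on AAV-αSyn replicate 4 (7.69), as was the listed thalamic marker *Prkcd* (13.54 and 10.22). The others were the Purkinje cell markers *Pcp2*, *Car8* and *Calb1*, with differences of −0.027, −0.066 and −0.24. All 4 were above background on all 8 arrays. The part of cerebellar tissue in the values of *Slc1a6* was not tested, nor was the tissue behind those of *Zic1*. *Calb1*, which other neurons also express, was at its lowest on AAV-αSyn replicate 1, at 9.07 against 9.38 to 9.96 elsewhere, and *Pcp2*, at 6.03, was near the low end of its range of 6.02 to 6.39. *Car8* read 9.44 there, within a range of 9.35 to 9.72.

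The carriers of each kind were also set against each other, by comparing their log2 differences in 4 pairs. The difference of *Slc17a6* minus that of *Slc17a7* was −0.41, and that of *Slc17a6* minus that of *Slc17a8* was −0.62. *Slc17a7* against *Slc17a8* gave −0.21, and *Slc1a2* against the brighter *Slc1a3* probe gave −0.10. Exact permutation tests (n = 4 arrays per group) gave p = 0.629, 0.400, 0.800 and 0.771 in that order, and 0.800 for each after adjustment over the 4 pairs. The first 3 pairs include *Slc17a7* or *Slc17a8*, each of which was not well above background on 3 of the 4 control arrays, so their values describe intensities near background and set no bound on a difference between transcripts.

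All 8 arrays lay on 1 slide in 2 columns, which each held 2 arrays of either group. Within the columns, the difference had opposite signs for 6 of the 8 probes. It was positive in both columns for *Slc17a7* (0.35 and 0.28) and negative in both for *Slc1a2* (−0.012 and −0.27). For *Slc17a6* the columns gave −0.29 and 0.088, and for *Slc17a8* they gave −0.28 and 1.33. Over the 4 rows of the slide, each with 1 array of either group, no probe had the same sign in every row.

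Markers of tissue near the SN varied between the arrays, and the transporters typical of such tissue are given beside them. *Slc17a6* was highest on AAV-Null replicate 4 and lowest on AAV-αSyn replicate 1. The same was true of *Foxb1*, a transcription factor of the mammillary region, at 9.50 and 6.77, and of *Barhl1*, of the subthalamic and mammillary region, at 7.61 and 5.67. The mean over the 4 markers of this region, *Lmx1a* among them, was 7.23, 7.29, 7.09 and 8.63 on the AAV-Null arrays and 6.48, 7.09, 7.41 and 6.98 on the AAV-αSyn arrays, and 0 of the 4 had an unadjusted p under 0.05. Thalamic markers, of which 4 of 6 were tested, had a mean of 11.16, 11.95, 12.23 and 11.91 on the AAV-Null arrays and 10.91, 11.35, 11.29 and 10.75 on the AAV-αSyn arrays. The highest and lowest arrays of this mean, AAV-Null replicate 3 and AAV-αSyn replicate 4, were not those of *Slc17a6*. *Calb2*, however, was highest on AAV-Null replicate 4 (15.56) and lowest on AAV-αSyn replicate 1 (14.73), as *Slc17a6* was. *Slitrk6* was also highest on AAV-Null replicate 4 (10.44), whereas *Prkcd* and *Lef1* were highest on AAV-Null replicate 3 (13.54 and 10.19). Of the 4 thalamic markers, 2 were lower at an unadjusted p under 0.05, beside 5.64% of all probes. These were *Prkcd*, a protein kinase (−1.56, adjusted p = 0.785), and *Slitrk6*, a synaptic adhesion protein (−0.33, adjusted p = 0.880). The part of such tissue in the values of *Slc17a6* was not tested.

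**Figure D4:**
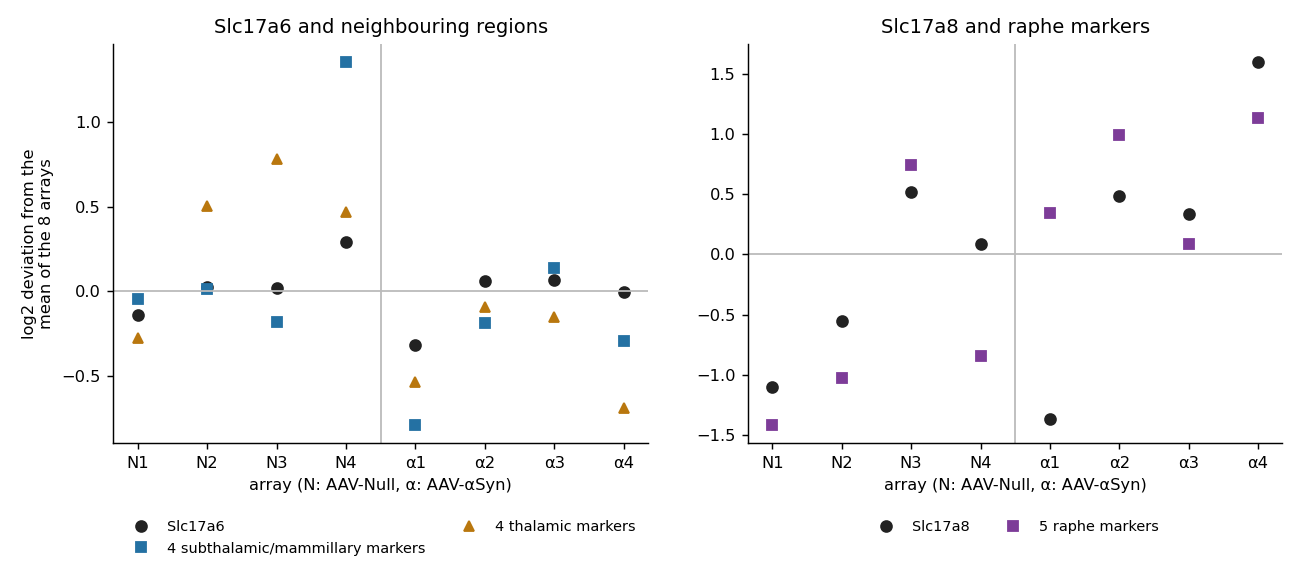
Deviation of each array (horizontal axis: N, AAV-Null; α, AAV-αSyn; number, replicate) from the mean of the 8 arrays on the log2 scale, for *Slc17a6* beside the mean of subthalamic and mammillary and of thalamic markers, and for *Slc17a8* beside the mean of raphe markers. *Slc17a6* and the mean of the subthalamic and mammillary markers share their highest array, N4, and their lowest, α1. The mean of the thalamic markers is highest on N3 and lowest on α4, although *Calb2* among them is highest on N4 and lowest on α1. *Slc17a8* and the mean of the raphe markers share their highest array, α4, but not their lowest.

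Markers of serotonergic raphe neurons, some of which express VGLUT3, were higher in the AAV-αSyn group for 2 of 5 genes at an unadjusted p under 0.05, beside 5.64% of all probes. These were *Tph2*, the enzyme of serotonin synthesis (2.35, adjusted p = 0.600), and *Slc6a4*, the serotonin transporter (2.30, adjusted p = 0.760), and the groups of arrays overlapped for both. The mean over the 5 markers was 5.79, 6.18, 7.95 and 6.37 on the AAV-Null arrays and 7.55, 8.21, 7.30 and 8.35 on the AAV-αSyn arrays. *Slc17a8* and this mean shared the highest array, AAV-αSyn replicate 4, and AAV-Null replicate 3 was the highest control array for both. Of the single markers, *Tph2* and *Slc6a4* were highest on AAV-αSyn replicate 4. *Fev* (5.68) and *Gata3* (8.89) were highest on AAV-Null replicate 3, and *Htr1a* (6.01) on AAV-αSyn replicate 2. On AAV-αSyn replicate 1, *Slc17a8* was at its lowest, 2.40, and not well above background. *Htr1a* was also at its lowest there, at 4.71. *Tph2* (11.16), *Slc6a4* (8.43), *Fev* (5.11) and *Gata3* (8.36) were not at their lowest on that array. Of the 6 listed markers of cortex and hippocampus, where VGLUT1 is typical, 4 were tested and 0 of these had an unadjusted p under 0.05. *Neurod6* and *Neurod2* were above background on all 8 arrays, but *Fezf2* on 1 array, where *Slc17a7* was not at its highest. The part of these tissues in the values of *Slc17a7* and *Slc17a8* was not tested. Dopaminergic markers, the defining cells of the SN, were present on all arrays, with a mean of 12.47 to 12.93 in the AAV-Null group and 12.06 to 12.38 in the AAV-αSyn group. All 7 tested were lower, 4 of them at an unadjusted p under 0.05, beside 5.64% of all probes. In limma's test 0 of the 7 had an adjusted p under 0.05. The 4 were *Th* (−0.52, adjusted p = 0.484), *Slc6a3* (−0.79, 0.747), *Pitx3* (−0.78, 0.747) and *Ddc* (−0.25, 0.835).

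The enzymes, receptors and partners that work with the carriers gave 2 of 47 tested genes with an unadjusted p under 0.05 (4.26%, beside 5.64% of all probes), both lower in the AAV-αSyn group, and 0 with an adjusted p under 0.05. The median difference over the 47 genes was −0.042. Among genes of glutamate synthesis and related amino acid carriers, 0 of 14 had an unadjusted p under 0.05. The furthest from 0 were *Got1*, cytosolic aspartate aminotransferase, with a difference of −0.34 (standard error 0.49), and *Slc7a11*, the cystine/glutamate exchanger, with −0.19 (standard error 0.25). *Got1* rested on AAV-αSyn replicate 1, without which its difference was 0.23 (unadjusted p = 0.0234 and adjusted p = 0.950 in limma's test). The difference of *Slc7a11* was −0.42 without AAV-Null replicate 3 (unadjusted p = 0.0474 and adjusted p = 0.607 in limma's test) and −0.087 without AAV-αSyn replicate 4. *Slc1a7*, the retinal carrier EAAT5, was above background on no array and was not tested.

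Of the ionotropic glutamate receptors, 1 of 18 had an unadjusted p under 0.05 and was lower, a share of 5.56% beside 5.64% of all probes. This was *Grik3*, a kainate receptor subunit, at 4.54, 4.79, 4.89 and 4.36 on the AAV-Null arrays and 4.42, 4.23, 4.12 and 4.34 on the AAV-αSyn arrays. The groups overlapped, and the difference was −0.37 (standard error 0.13) with an unadjusted p of 0.0231 and an adjusted p of 0.815 in limma's test. Its unadjusted p in limma's test was 0.0590 with arrays scaled by their 75th percentile, and was not under 0.05 in 4 of the 8 cases with 1 array left out. Of the metabotropic receptors, 1 of 8 had an unadjusted p under 0.05 and was lower, and 0 of 8 had an adjusted p under 0.05.

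Among the partners of the carriers, 0 of 7 had an unadjusted p under 0.05, beside 5.64% of all probes. The furthest from 0 were *Kcnj10*, the potassium channel Kir4.1 of astrocytes, with a difference of −0.21 (standard error 0.22), and *Atp6v0a1*, a subunit of the proton pump that energises vesicles, with −0.14 (standard error 0.29). Both rested on AAV-Null replicate 3, without which the differences were 0.011 for *Kcnj10* and 0.19 for *Atp6v0a1*.

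**Figure D5:**
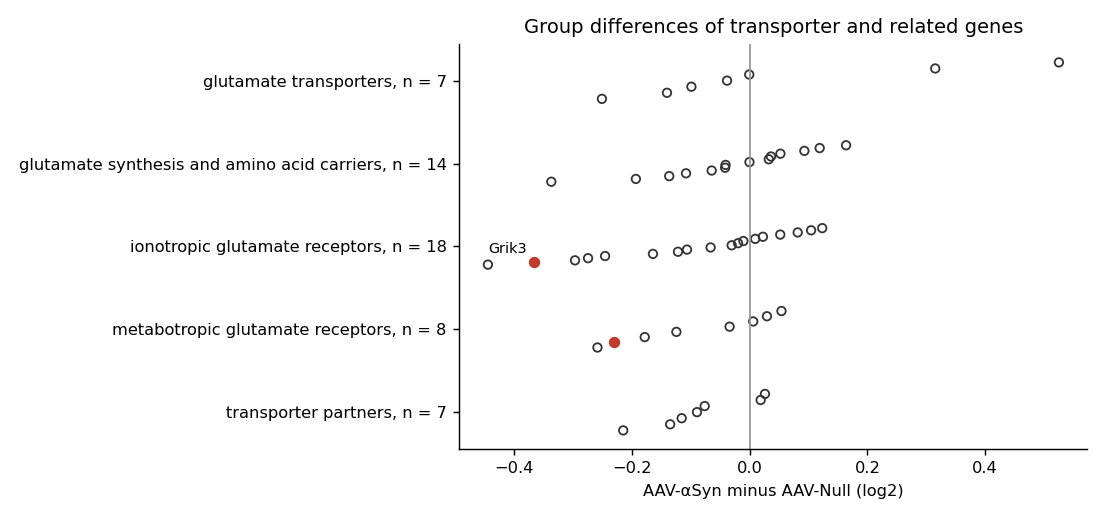
Difference of AAV-αSyn minus AAV-Null on the log2 scale (horizontal axis) for the 7 transporter genes and 4 lists of related genes, 1 point per gene, spread vertically in order of size. Filled red points have an unadjusted p under 0.05 in limma's test, which holds for 2 genes, *Grik3* and 1 metabotropic receptor.

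The genes whose pattern over the 8 arrays was most like that of a carrier were sought among the 16148 named probes above background on all arrays, with no test, because the best of so many probes over 8 arrays is high by selection. For *Slc17a6* these were *Pspn* (Pearson r 0.986), which encodes persephin, *Scg2* (0.983), which encodes secretogranin II, and *Trnau1ap* (0.969). For *Slc1a2* they included *Wac* (0.979) and *Pnma8b* (0.974), and for the brighter *Slc1a3* probe *Ncor1* (0.989), a nuclear corepressor, *Disp1* (0.976) and *Suv39h1* (0.974). *Slc1a1* was nearest to *Nxnl1* (0.950), *Rab4a* (0.924) and *Tmem150b* (0.917), and *Slc1a6* to *St8sia1* (0.977), *Rnase4* (0.973) and *Trpm2* (0.970). For the dim *Slc17a7* they were *Tepsin* (0.988), *Phf21b* (0.981) and *Rnf112* (0.979), and for *Slc17a8* they were *Disp2* (0.960), *Helz* (0.956) and *MGC116197* (0.953).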

How the data were processed

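RNA of the ipsilateral SN was hybridised to Agilent SurePrint G3 Rat Gene Expression arrays (Cy3). The authors deposited the intensity of each spot, corrected for background by Feature Extraction (12.0.3.2 per the file headers, 11.5.1.1 per the labels and methods) and not normalized between arrays, and a matrix of quantile-normalized log2 values from limma 3.30.7. The methods give 3 biological replicates per group, whereas 4 arrays per group were analysed here. Which animal each array came from is not given in the sources used here, and p-values measure the spread between arrays.

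Values were recomputed in R 4.3.3 with limma 3.58.1 and statmod 1.5.0. Control spots and spots marked as outliers were left out, log2 intensities were quantile normalized, and spots of a probe were averaged. A probe was above background on an array where at least 0.5 of its spots were well above background, and was tested where this held on at least 1 array. Groups were compared by lmFit and eBayes without a trend, two-sided, with Benjamini–Hochberg adjustment over 33853 probes and a threshold of 0.05. Exact permutation tests used every split of the arrays. Intervals are at 95%. The procedure was tested on simulated data. The number of arrays and the signal over background limit the precision.

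Probes were named through RefSeq accessions of the rat assembly GRCr8, which gave 21229 probes a symbol. No positions are given because the array's annotation is of another assembly. The brightest probe stands for a gene that has more than 1. Named genes are the 7 carriers, genes of the related lists with an unadjusted p under 0.05 (or the 2 furthest from 0), and the 3 probes most correlated with each carrier. Single markers were named after their values were seen. Some genes that the rule selects are not reported here. The carriers, the related lists, the marker lists and the tests were chosen with earlier results of these data known. Alternatives were the scaling, background correction, filter, source of values, variance model, blocks for replicate number and slide column, and each array left out in turn. Those for *Got1*, *Slc7a11*, *Kcnj10*, *Atp6v0a1* and *Slc6a5* were added after seeing the data.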

Additional observations from a re-analysis of the deposited data

Results flagged for a closer look

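In 2 of 46 groups of 4 arrays examined, for the carriers, related genes named and marker lists, 1 array stood apart by a gap to its nearest neighbour above Dixon's 95% critical value, as a share of the group's range. Chance flags about 5% of groups, which is 2.3 of 46. For *Slc1a1* the gap was 0.888 of the range of the AAV-αSyn arrays, with replicate 4 at 10.28 and the others at 10.35 to 10.36, a range of small absolute size. For the mean of the subthalamic and mammillary markers the gap was 0.872 of the range of the AAV-Null arrays, with replicate 4 at 8.63 and the others at 7.09 to 7.29. *Slc17a6* was also highest on that array, at 14.34, and without it the difference of *Slc17a6* was −0.019.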

How the results depend on the processing

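The count of transporter probes past the adjusted threshold was 0 under every alternative that was run, and the count with an unadjusted p under 0.05 was 0 under every processing alternative and 0 to 1 with 1 array left out. The difference of *Slc1a1* turned to 0.0099 with arrays scaled by their 75th percentile, the single change of sign under another processing. With 1 array left out, the differences ran from −0.34 to 0.89 for *Slc17a7*, from −0.040 to 0.036 for *Slc1a1*, from −0.075 to 0.029 for the brighter *Slc1a3* probe and from −0.42 to 0.095 for *Slc1a6*, each with a change of sign. They kept their sign, from −0.16 to −0.010 for *Slc17a6*, from 0.070 to 1.07 for *Slc17a8*, from −0.26 to −0.067 for *Slc1a2* and from −0.17 to −0.019 for the other *Slc1a3* probe. The differences between carriers then ran from −0.99 to 0.18 for *Slc17a6* with *Slc17a7*, from −1.08 to −0.18 for *Slc17a6* with *Slc17a8*, from −0.80 to 0.23 for *Slc17a7* with *Slc17a8* and from −0.29 to 0.0080 for *Slc1a2* with *Slc1a3*. The deposited matrix gave 0.57 for *Slc17a7*. The normexp correction gave 0.024 for *Slc17a7*, 0.15 for *Slc17a8* and −0.14 for *Grik3*, and array weights gave 0.67 for *Slc17a7* and 1.03 for *Slc17a8* (unadjusted p = 0.178 and 0.0741 in limma's test), −0.027 for *Slc17a6*, −0.053 for *Slc1a1*, −0.16 for the other *Slc1a3* probe and −0.056 for *Slc1a6*. The related genes with an unadjusted p under 0.05, 2 of 47, were 1 with the 75th percentile, 4 with normexp, 5 with array weights (10.6%, where the share of all probes was 13.6%) and 0 to 4 with 1 array left out; the cause was not tested. With 1 array left out, the differences of *Got1* ran from −0.54 to 0.23, of *Kcnj10* from −0.34 to 0.011 and of *Atp6v0a1* from −0.28 to 0.19. In the authors' numbering, arrays of the same number share a slide row, and their deviations correlated at 0.0065 to 0.20, so the numbers were not taken as pairs. With the replicate block, 0 of 8 transporter probes had an unadjusted p under 0.05, and 0 of all probes passed the adjustment, against 5 without it. Filters that need 4 or 8 arrays above background leave *Slc17a7* untested, and that of 8 also *Slc17a8*. Signal near background limits both genes.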

Other observations

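Markers of other cells and tissues in or near the SN gave the following counts at an unadjusted p under 0.05, which 5.64% of all probes had: 0 of 6 oligodendrocyte markers, 0 of 6 microglial markers, 0 of 3 markers of GABAergic neurons, 0 of 2 markers of the red nucleus and colliculus, 0 of 2 blood markers, 1 of 4 cerebellar markers and 1 of 2 pontine markers. The gene on the cerebellar list was *Zic1*, and the tissue behind its values was not tested. The pontine gene was *Slc6a5*, the neuronal glycine transporter, with a difference of 1.28 and an adjusted p of 0.0424 in limma's test, 1 of the 5 probes of the whole array past that threshold. This call was lost under the replicate block (adjusted p = 0.396), with the slide column as a block (0.0980), with cyclic loess (0.0621), with no filter on dim probes (0.0821), with the deposited matrix (0.0593) and with 7 of the 8 arrays left out singly (0.0717 to 0.198). The difference itself was 1.28 under both blocks, 1.26 with cyclic loess, 1.17 with the deposited matrix and 1.17 to 1.34 with 1 array left out.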
